A study of Homo sapiens with 8 samples.

Results

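The proteasome genes described here are 40 human genes chosen by name: the alpha (PSMA1 to PSMA7) and beta subunits (PSMB1 to PSMB7) of the 20S core, the immunoproteasome subunits PSMB8, PSMB9 and PSMB10, the ATPases of the 19S regulatory particle (PSMC1 to PSMC6), 11 non-ATPase subunits of that particle (PSMD genes), the activators PSME1 to PSME4 and the assembly factors POMP and PSMG1. The rule lists their names and uses no measured value. Of the 40, 39 had an identifier in the count tables, out of 60291 genes in all, and each of the 39 had between 132 and 13430 reads in each of the 8 libraries, so that none was lost to the filter on low counts. PSMB3 was not analysed here, because the identifier that the annotation pairs with its name was not among those of the count tables.

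The 26S proteasome degrades proteins that carry ubiquitin chains. Its 20S core is a barrel of stacked alpha and beta rings in which a few of the beta subunits hold the cutting sites, and the 19S particle binds, deubiquitinates, unfolds and feeds substrates into it. Cells replace the cutting subunits by interferon-induced counterparts in the immunoproteasome, and regulate the amount of proteasome through NFE2L1 (NRF1), a transcription factor related to NFE2L2. NFE2L2 (NRF2) binds antioxidant response elements with small MAF proteins, is held back by KEAP1, and is known to contribute to the expression of some proteasome subunits under oxidative stress.

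The cells were A549, a human lung adenocarcinoma line in which a KEAP1 mutation leaves NRF2 active without added stress. Transfections used 250000 cells, RNA was collected after 48 h, and total RNA was sequenced without ribosomal RNA. The NFE2L2 siRNA group held 3 libraries, 1 for each of 3 independent duplexes, at 5 nmol; the control siRNA group held 4 libraries, 2 transfections of each of 2 control duplexes at the same amount; a mock transfection without siRNA gave 1 library. Each NFE2L2 duplex was thus used in a single transfection, and the effect of a duplex and of its transfection cannot be told apart. The deposited values were read counts per gene, with 35525141 to 41645410 reads on genes in the 7 siRNA libraries and 39498992 in the mock library. Levels are given below as CPM, the reads on a gene per 1000000 reads on all genes after TMM scaling, and differences as log2 fold changes from edgeR, NFE2L2 siRNA minus control siRNA, with the standard error (SE) and a p adjusted over all 17811 genes tested. The threshold on the adjusted p was 0.01.

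The siRNA target itself was reduced. NFE2L2 was measured at 32.9, 51.9 and 29.6 CPM with duplexes 1, 2 and 3, against 107 to 117 CPM in the control libraries, a log2 fold change of −1.55 (adjusted p = 9.94e-04). The keratins KRT7, KRT8 and KRT18 stood at 912 CPM or more in all 8 libraries and EPCAM at 3.55 to 10.8 CPM. The leukocyte genes PTPRC and CD3E stayed below 10 reads in each siRNA library. So did CD68, but in GENCODE v44 81.6% of its exon bases are shared with another gene of the same strand, where reads may count for neither. COL1A1, a fibroblast collagen, was at 9.24 to 13.7 CPM with NFE2L2 siRNA and at 3.95 to 4.53 CPM in the controls (log2 fold change 1.5, adjusted p = 4.93e-04), and the part of such a change in the results below was not tested.

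With NFE2L2 siRNA, most proteasome genes lay slightly below their control level. The log2 fold change was negative for 34 of the 39 genes (87.2%, against 48.7% of all genes tested) and its median was −0.25, against 0.01 over all genes tested, which corresponds to 0.838 of the control level. A count of signs can be as uneven without NFE2L2 siRNA. In control library 3, 34 of the 39 genes lay below the mean of the controls (49.2% of all genes), with a median log2 ratio of −0.07. In control library 2 it was 7 genes (48.8% of all genes). All 32 genes outside the immunoproteasome and the activators had negative values, with a median of −0.27, while the 3 immunoproteasome subunits had positive values with a median of 0.16 and the 4 activators a median of −0.03. The range ran from −0.50 for PSMA5 to 0.28 for PSMB9. In bulk RNA, fewer cells with a transcript and less of it per cell cannot be told apart.

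None of these differences passed the threshold of 0.01. By edgeR, 0 of 39 proteasome genes were called, where 1.36% of all genes tested were reduced and 1.39% increased. At an adjusted p under 0.05, 5 proteasome genes were reduced (PSMA3, PSMA5, PSMC1, PSMC2 and PSMD14), against 3.54% of all genes. At an unadjusted p under 0.05, 20 were reduced and 1 (PSME1) was increased, where the shares of all genes were 11.7% and 13.3%. With DESeq2 the same 5 genes were reduced at an adjusted p under 0.01 and 0 increased, against 3.32% and 4.05% of all genes, and limma-voom reduced 0, against 1.38% of all genes. The 95% interval of the log2 fold change lay below 0 for 20 genes, across 0 for 18 and above 0 for 1, and it reached −1, a loss of 2-fold, for 0 of 39: the lowest bound of any interval was −0.78.

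**Figure D1:**
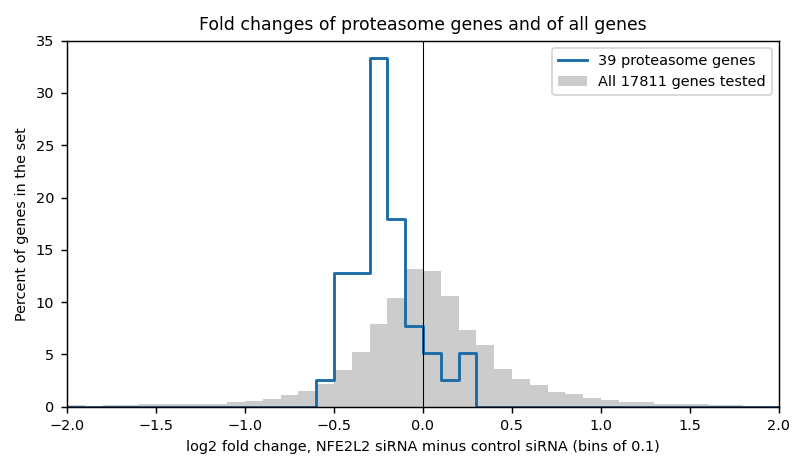
Percent of genes (vertical axis) in bins of 0.1 of the log2 fold change, NFE2L2 siRNA minus control siRNA (horizontal axis), for the 39 proteasome genes (blue line) and all 17811 genes tested (grey bars; the axis stops at −2 and 2). The proteasome genes lie between −0.50 and 0.28, with 34 of 39 to the left of 0.

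For 19 of 39 proteasome genes all 3 NFE2L2 siRNA libraries were lower than any control (11.4% of all genes tested), and for 2 they were higher, PSMB8 and PSME1 (11.9% of all genes). For each of these 21 genes an exact permutation test over the 35 divisions of the libraries gave p = 0.0571. The test was made two-sided by doubling the smaller tail. In that form 0.0571 is the smallest value it can give, so that this test alone cannot reach 0.05. The divisions treat the 2 transfections of each control duplex as separate units.

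The size of the difference varied with the duplex. Relative to the mean of the controls, the median log2 ratio over the 39 genes was −0.14 with duplex 1, −0.21 with duplex 2 and −0.38 with duplex 3, while the single control libraries had medians from −0.07 to 0.07. With duplex 1, 22 genes lay below the lowest control library (56.4%, against 33.1% of all genes), with duplex 2 it was 27 (69.2%, against 31.0%) and with duplex 3 it was 33 (84.6%, against 33.4%). The duplex 3 library was the lowest of the 7 for 27 genes (69.2%), a position it held for 17.9% of all genes with reads in every library. Without the duplex 3 library, the median log2 fold change was −0.15 instead of −0.25. The order of the duplexes was not that of the remaining NFE2L2, which was highest with duplex 2.

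Summed over the 39 genes, the level was 4983, 4769 and 4174 CPM with duplexes 1, 2 and 3 and 5503, 5641, 5274 and 5547 CPM in the control libraries. All 3 sums lay below the lowest control. The means were 4642 ± 419 (SD, n = 3) and 5491 ± 156 (SD, n = 4), so that the sum with NFE2L2 siRNA was 84.5% of the control sum (0.464% and 0.549% of all CPM). By class, the summed level was 80.2% of control for the alpha subunits, 86.1% for the beta subunits, 84.4% for the 19S ATPases, 82.5% for the 19S non-ATPase subunits and 80.0% for the assembly factors. It was 112% for the immunoproteasome and 101% for the activators.

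**Figure D2:**
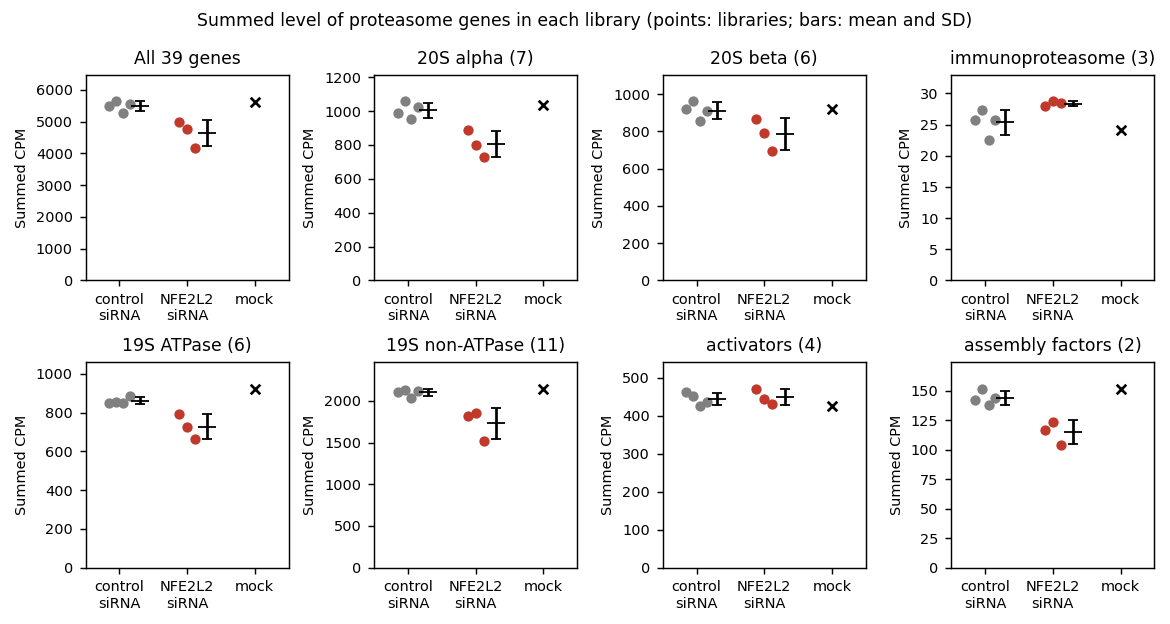
Summed CPM (vertical axes, from 0) of all 39 genes and of each class in the 4 control siRNA libraries (grey), the 3 NFE2L2 siRNA libraries (red, duplexes 1 to 3 from left to right) and the mock library (cross), with the mean and SD of the replicated groups as bars. The red points lie below all grey points in 5 of the 8 panels; those of the beta subunits and the activators overlap the controls, and those of the immunoproteasome lie above them.

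Among the alpha subunits, which form the outer rings and the gate of the core, all 7 log2 fold changes were negative, with a median of −0.30. For 4 genes (PSMA2, PSMA3, PSMA5 and PSMA7) all NFE2L2 siRNA libraries lay below the controls, as for 11.4% of all genes tested. PSMA5 had the lowest value of all 39 genes. It was at 91.5, 76.6 and 80.5 CPM with duplexes 1, 2 and 3, and at 119, 126, 110 and 114 CPM in the controls. The groups did not overlap, and the highest NFE2L2 siRNA library stood below the lowest control. The log2 fold change was −0.50 (SE 0.0962, adjusted p = 0.0129), or −29.4% with a 95% interval from −39.1% to −18.0%. Over the omission of each library the adjusted p of PSMA5 ran from 0.00669, without the duplex 1 library, to 0.0547. In that fit 1.48% of all genes were reduced past the threshold, among them PSMA5 and PSMB5.

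PSMA5 (ENSG00000143106.8) is encoded on chromosome 1 (GRCh37 bases 109941664 to 109969070, minus strand). Its promoter window from RefSeq (GRCh38.p14, 250 bases before to 50 after the start) is shown because it is the window of the gene with the lowest fold change. It was found unchanged at chr1:109969021-109969320 on the minus strand of GRCh37, and it holds no match to the core of the antioxidant response element, TGACNNNGC, on either strand, so that no letters are in capitals.
PSMA5: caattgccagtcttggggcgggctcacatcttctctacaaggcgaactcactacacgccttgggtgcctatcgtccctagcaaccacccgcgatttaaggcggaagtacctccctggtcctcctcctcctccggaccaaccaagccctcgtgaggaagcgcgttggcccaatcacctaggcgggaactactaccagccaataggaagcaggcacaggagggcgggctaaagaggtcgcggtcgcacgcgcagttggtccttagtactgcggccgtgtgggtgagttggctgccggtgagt

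PSMA3 was measured at 94.1, 92.6 and 75.5 CPM with NFE2L2 siRNA and at 114, 133, 115 and 127 CPM in the controls, again without overlap. Its log2 fold change was −0.48 (SE 0.108, adjusted p = 0.0245). PSMA1 differed widely between duplexes: it was at 108, 69.4 and 86.4 CPM against 106 to 133 CPM in the controls, so that duplex 1 stood within the control range and duplex 2 far below it, and the log2 fold change of −0.44 had an SE of 0.152. The highest value of the class was that of PSMA4, at 253, 236 and 216 CPM against 240 to 292 CPM, with overlapping groups and a log2 fold change of −0.17 (SE 0.101, adjusted p = 0.320).

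The beta subunits had 6 negative log2 fold changes of 6 analysed, with a median of −0.20. For 3 genes (PSMB2, PSMB5 and PSMB6) all NFE2L2 siRNA libraries lay below the controls, as for 11.4% of all genes tested. PSMB5, which carries the chymotrypsin-like site and is the main target of bortezomib, had the lowest value. Its levels were 198, 149 and 149 CPM against 231, 233, 201 and 208 CPM. Duplex 1 stood just under the lowest control, and the other two far under it. The log2 fold change was −0.40 (SE 0.121, adjusted p = 0.0714). Without the duplex 1 library PSMB5 was past the threshold, with an adjusted p of 0.00968. With any other single library left out, its adjusted p ran from 0.0945 to 0.200. PSMB6, with the caspase-like site, had 132, 130 and 112 CPM against 141 to 159 CPM, a log2 fold change of −0.29 (SE 0.0933, adjusted p = 0.0892). PSMB7, with the trypsin-like site, overlapped its controls at 148, 143 and 123 CPM against 143 to 161 CPM, a log2 fold change of −0.14 (SE 0.0960, adjusted p = 0.391). PSMB4, a structural subunit, had the value nearest to 0 at −0.05 (SE 0.0921, 95% interval −0.26 to 0.15).

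**Figure D3:**
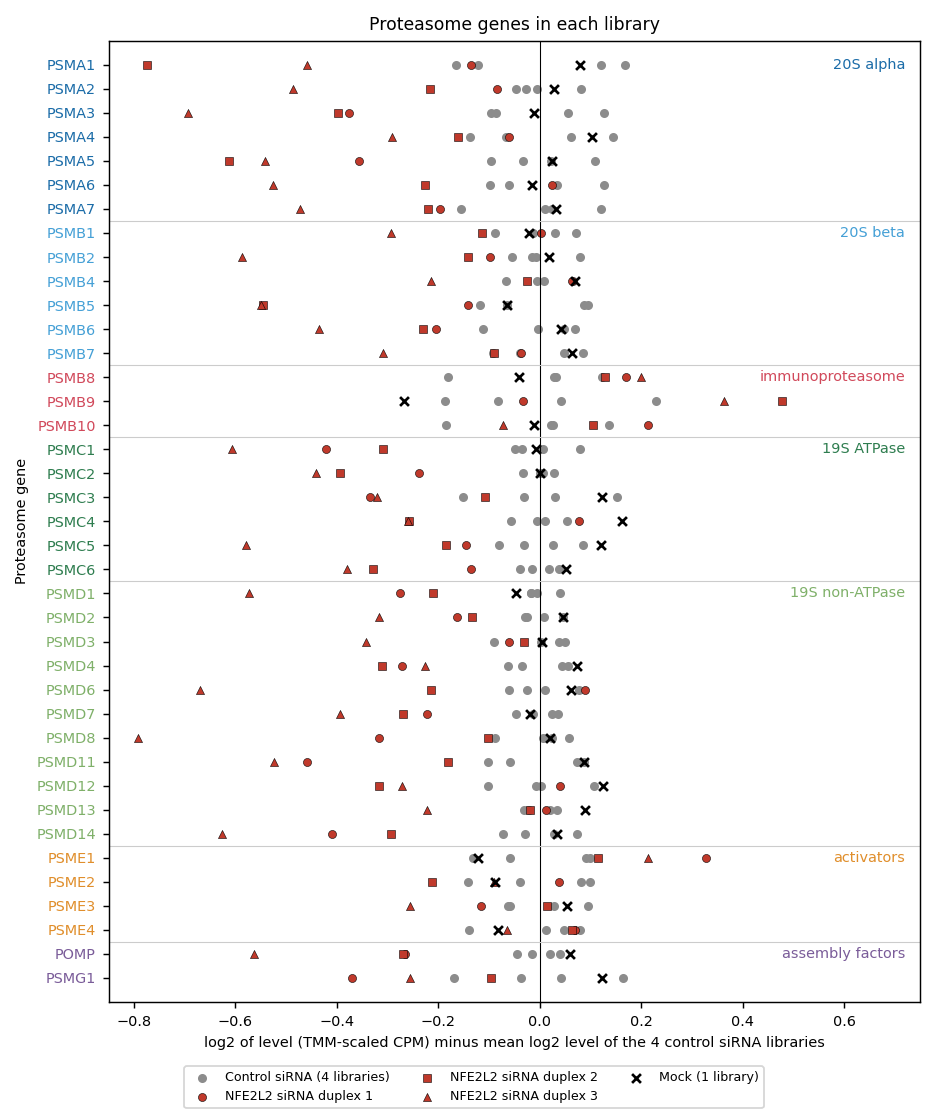
For each of the 39 genes (rows, grouped and coloured by class), the log2 of its CPM in each library minus the mean log2 CPM of the 4 control libraries (horizontal axis). Grey dots are the control libraries, red symbols the 3 NFE2L2 duplexes and crosses the mock library; the triangles of duplex 3 are the lowest points for 27 genes, and PSMB8 and PSME1 have all 3 red symbols to the right of 0.

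The ATPases form the ring that unfolds substrates and opens the core. All 6 had negative log2 fold changes, with a median of −0.28. For 4 of them (PSMC1, PSMC2, PSMC5 and PSMC6) all NFE2L2 siRNA libraries lay below the controls, as for 11.4% of all genes tested. PSMC1 was at 23.6, 25.6 and 20.8 CPM with NFE2L2 siRNA and at 30.9, 31.8, 30.6 and 33.4 CPM in the controls, a log2 fold change of −0.44 (SE 0.104, adjusted p = 0.0311). PSMC2 was at 111, 100 and 96.8 CPM against 134, 131, 128 and 132 CPM. These groups did not overlap either, and the log2 fold change was −0.36 (SE 0.0847, adjusted p = 0.0324). PSMC4 had the value nearest to 0 among the ATPases: duplex 1, at 297 CPM, lay above all controls (271 to 292 CPM), duplexes 2 and 3 lay at 235 CPM, and the log2 fold change was −0.14 (SE 0.103, adjusted p = 0.442).

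The non-ATPase subunits of the 19S particle include its scaffold, its ubiquitin receptors and a deubiquitinase. All 11 had negative log2 fold changes, with a median of −0.27. For 7 of them all NFE2L2 siRNA libraries lay below the controls (PSMD1, PSMD2, PSMD4, PSMD7, PSMD8, PSMD11 and PSMD14), as for 11.4% of all genes tested. PSMD14, the deubiquitinase that removes ubiquitin chains from bound substrates, had the lowest value of the class. It stood at 143, 155 and 123 CPM against 186, 200, 180 and 193 CPM, and its log2 fold change was −0.44 (SE 0.0993, adjusted p = 0.0266). Without the duplex 2 library the adjusted p of PSMD14 was 0.00958, and that of PSMD11, a scaffold subunit with a log2 fold change of −0.38, was 0.00950, where 2.94% of all genes passed as reduced. With any other single library left out, the adjusted p ran from 0.0341 to 0.0961 for PSMD14 and from 0.0812 to 0.168 for PSMD11. The ubiquitin receptor PSMD4 was similar in the 3 duplexes, at 109, 106 and 112 CPM against 126 to 136 CPM, with a log2 fold change of −0.27 (SE 0.0805, adjusted p = 0.0700). PSMD13 had the value nearest to 0, with 120, 117 and 102 CPM against 116 to 122 CPM and a log2 fold change of −0.07 (SE 0.0878, 95% interval −0.27 to 0.12).

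POMP, the chaperone that matures with the core and is consumed by it, was at 82.2, 82.0 and 66.9 CPM with NFE2L2 siRNA and at 95.9, 102, 97.9 and 100 CPM in the controls, without overlap. Its log2 fold change was −0.36 (SE 0.0970, adjusted p = 0.0507). PSMG1, which helps to build the alpha ring, was at 34.6, 41.9 and 37.5 CPM against 39.8 to 50.1 CPM, with a log2 fold change of −0.24 (SE 0.111, adjusted p = 0.212). A further 18 proteasome genes outside the 40 (other subunits, chaperones and associated factors) were read beside them, of which 16 had enough reads to be tested. All 16 had negative log2 fold changes, with a median of −0.18, and 1 was reduced past the threshold, as 1.36% of all genes were. That gene was PSMG3, a partner in alpha ring assembly, at 30.6, 32.1 and 26.6 CPM against 41.8 to 46.9 CPM, with a log2 fold change of −0.56 (SE 0.102, adjusted p = 0.00975). This call of PSMG3 was lost without the duplex 1 library (adjusted p = 0.0138), without the duplex 3 library (0.0304) and without any single control library (0.0257 to 0.0460).

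The immunoproteasome subunits were low in these cells and stood apart in direction. PSMB8 was at 17.2, 16.7 and 17.6 CPM with NFE2L2 siRNA and at 15.6, 16.7, 13.5 and 15.6 CPM in the controls. The groups did not overlap, but the lowest NFE2L2 siRNA library and the highest control nearly met. The log2 fold change of PSMB8 was 0.16 (SE 0.107, adjusted p = 0.383), with a 95% interval from −0.08 to 0.40. PSMB9 was at 3.94, 5.61 and 5.19 CPM against 3.54 to 4.73 CPM, a log2 fold change of 0.28 (SE 0.166, adjusted p = 0.334). That value was 0.16 without the duplex 2 library and 0.41 without the duplex 1 library. PSMB10 was at 6.90, 6.40 and 5.66 CPM against 5.23 to 6.54 CPM, a log2 fold change of 0.08 (SE 0.132, adjusted p = 0.751). The groups overlapped for both. Among 5 interferon-induced partners read beside them, 0 passed the threshold by edgeR (1.36% of all genes reduced, 1.39% increased) or DESeq2 (3.32% and 4.05%). At an unadjusted p under 0.05, 2 were increased, where 13.3% of all genes were, among them NLRC5 (log2 fold change 0.48, adjusted p = 0.0600). TAP1 and TAP2, the peptide transporters whose genes neighbour PSMB8 and PSMB9, had log2 fold changes of −0.20 and −0.25.

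PSMB9 (ENSG00000240065.3) is encoded on chromosome 6 (GRCh37 bases 32811913 to 32827628, plus strand). Its promoter window is shown as that of the gene with the highest fold change. It was found at chr6:32821719-32822018 on the plus strand, and the capitals mark its match to the antioxidant response element core, which reads TGACNNNGC on the other strand.
PSMB9: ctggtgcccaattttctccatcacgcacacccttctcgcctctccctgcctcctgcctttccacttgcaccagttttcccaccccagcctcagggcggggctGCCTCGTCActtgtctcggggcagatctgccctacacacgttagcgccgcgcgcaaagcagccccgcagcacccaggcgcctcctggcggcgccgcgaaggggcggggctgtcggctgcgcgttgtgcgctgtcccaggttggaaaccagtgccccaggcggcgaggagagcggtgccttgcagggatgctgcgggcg

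Each immunoproteasome subunit can be set against the constitutive subunit whose place it takes, on a scale of CPM per kb of annotated exon. In the controls, PSMB9 had 1.21 ± 0.154 CPM per kb (SD, n = 4) and PSMB6 105 ± 5.80, PSMB10 3.67 ± 0.334 and PSMB7 85.1 ± 4.73, and PSMB8 4.41 ± 0.382 and PSMB5 141 ± 10.4. The constitutive gene was thus 86.5, 23.2 and 32.0 times as high per kb (115, 25.3 and 30.2 times with the longest transcript as length). As a share of its pair, PSMB8 made up 2.90% to 3.22% in the controls and 3.73%, 4.75% and 4.99% with duplexes 1, 2 and 3. PSMB9 made up 1.00% to 1.27% in the controls and 1.28%, 1.84% and 1.96% with NFE2L2 siRNA. PSMB10 made up 3.88% to 4.64% in the controls and 4.70% to 4.87% with NFE2L2 siRNA. The groups of all 3 shares were apart, by a wide margin for PSMB8 and a narrow one for the others. In the mock library, PSMB9 made up 0.919%, which is below every control and further from them than the margin between the groups. PSMB8 at 3.08% and PSMB10 at 3.92% lay within the control range there. A share also rises where its constitutive gene is lower. PSMB5, PSMB6 and PSMB7 had negative log2 fold changes, and PSMB9 and PSMB10 by themselves overlapped their controls. The level of PSMB10 is uncertain, since 39.4% of its exon sequence in GENCODE v44 is shared with another gene. How often shares of other gene pairs were apart was not computed, and the permutation test of each cannot go below 0.0571.

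**Figure D4:**
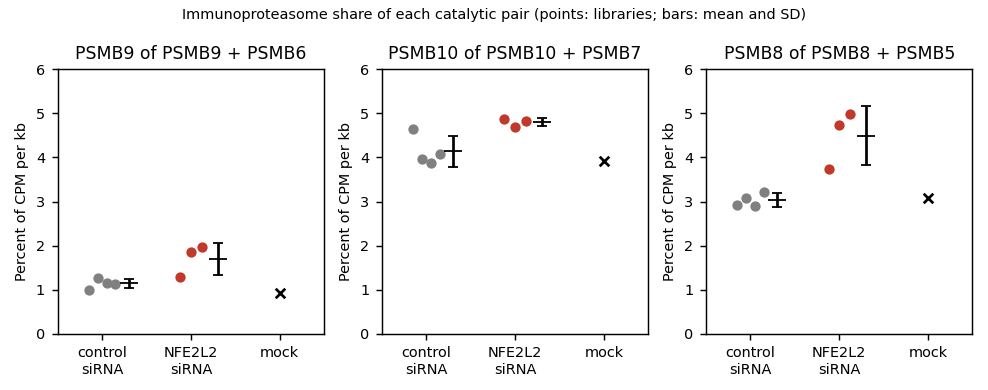
Percent of the CPM per kb of each catalytic pair that came from the immunoproteasome gene (vertical axes, from 0) in the 4 control siRNA libraries (grey), the 3 NFE2L2 siRNA libraries (red, duplexes 1 to 3 from left to right) and the mock library (cross), with mean and SD as bars. For the pair of PSMB8 and PSMB5, the control libraries lie between 2.90% and 3.22% and the NFE2L2 siRNA libraries between 3.73% and 4.99%.

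The activators bind the ends of the core in place of the 19S particle. PSME1, a subunit of the interferon-induced PA28 cap, was at 132, 114 and 122 CPM with NFE2L2 siRNA and at 113, 112, 96.3 and 101 CPM in the controls. Each NFE2L2 siRNA library stood above every control, narrowly so for duplex 2. The log2 fold change of PSME1 was 0.22 (SE 0.0960, adjusted p = 0.194), with a 95% interval from 0.003 to 0.43. Its partner in the same cap, PSME2, had 114, 96.0 and 104 CPM against 101 to 119 CPM and a log2 fold change of −0.09 (SE 0.0988, adjusted p = 0.626). PSME3, which forms a nuclear cap, was at 94.6, 104 and 85.9 CPM against 98.2 to 109 CPM, with a log2 fold change of −0.12 (SE 0.0941, adjusted p = 0.485). PSME4, a single-chain activator, was at 130, 129 and 118 CPM against 112 to 131 CPM, with a log2 fold change of 0.02 (SE 0.0891, 95% interval −0.18 to 0.22).

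**Figure D5:**
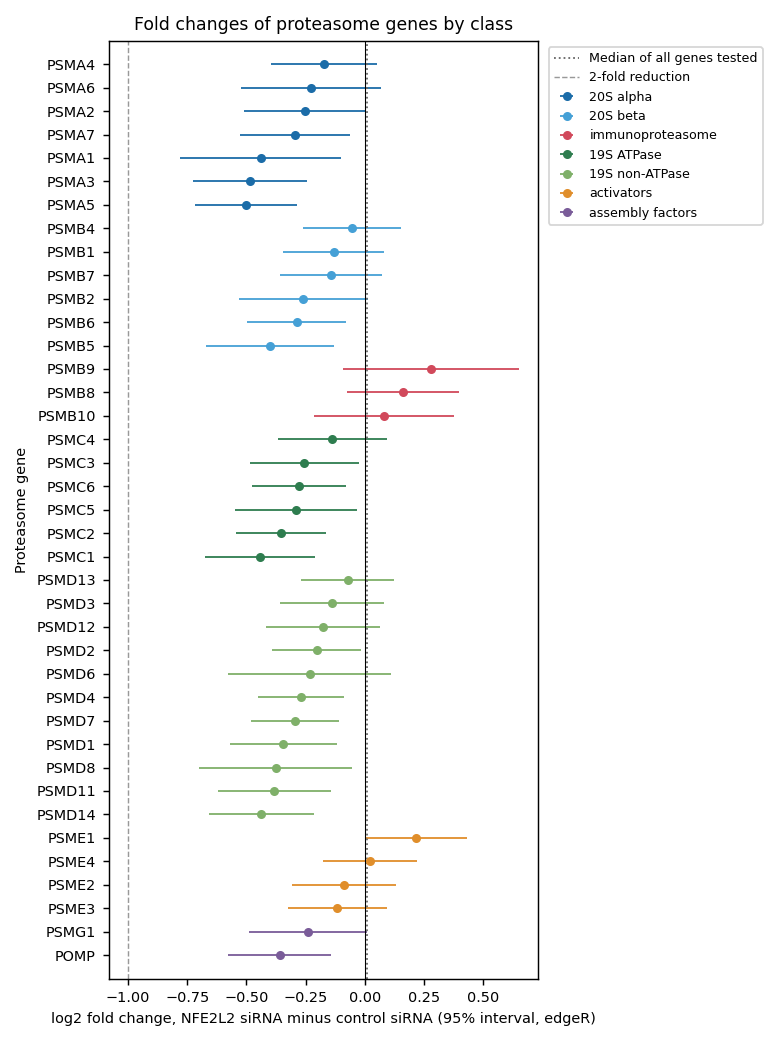
Log2 fold change, NFE2L2 siRNA minus control siRNA (horizontal axis), of each proteasome gene (rows, ordered within its class), with the 95% interval from edgeR. The dotted line is the median of all genes tested (0.01) and the dashed line a 2-fold reduction, which no interval reaches.

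The promoters of these genes were searched for the core of the antioxidant response element, TGACNNNGC, on both strands of the RefSeq windows. A window was found for 35 of the 40 genes, PSMB3 included, and the core was present for 12 of them (34.3%), against 16.1% of 27305 genes with a window. The stricter letters TGACTCAGC, one form of the same element, occurred for 0 of 35 and for 0.689% of all genes. Among the genes with counts, the 11 with the core had a median log2 fold change of −0.14, and 2 of them had NFE2L2 siRNA libraries that were all lower than the controls. The 23 without it had a median of −0.28 and 14 such genes, where 11.4% of all genes tested had all 3 libraries lower. Of the 11 with the core, 4 (PSMB9, PSME1, PSME2 and PSME4) belong to the immunoproteasome or the activators, as do 3 of the 23 without it, and the part of class in this difference was not tested. The windows, 42 for the 35 genes, cover 300 bases only, and a gene was counted if any of its windows held the core. The core of the interferon response element (GAAA, any 2 bases, GAAA), searched after the values had been seen, occurred for 6 of 35 genes (17.1%: PSMA4, PSMB4, PSMB8, PSMB10, PSME1 and PSME2), against 4.38% of all genes.

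Matches from both ends of the range are printed, in the direction in which the core reads, with 10 bases on each side where the window allows and the core in capitals. PSMD1 and PSMC5 are the genes with a core and with all 3 NFE2L2 siRNA libraries lower than any control. PSMB9, PSME1 and PSME4 are those with a core and a positive log2 fold change. The positions in GRCh37 are chr2:231921610-231921630 (plus) for PSMD1, chr17:61905014-61905042 (minus) for PSMC5, chr6:32821811-32821839 (minus) for PSMB9, chr14:24605307-24605335 (plus) for PSME1 and chr2:54198146-54198174 (plus) for PSME4. The match lies 39 bases into the transcript for PSMD1 and 57, 148, 86 and 34 bases before the start for the others in that order. PSMC5 has a further window for an earlier start (chr17:61904541-61904840), which holds no match. Its distance is counted from the later start, that of the window chr17:61904831-61905130.
PSMD1: aggaggcgacTGACTGAGCag
PSMC5: agggcggcgcTGACACAGCagatccggtc
PSMB9: ccgagacaagTGACGAGGCagccccgccc
PSME1: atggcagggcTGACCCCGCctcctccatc
PSME4: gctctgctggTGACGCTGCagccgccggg

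The control duplexes and the mock library show how far these genes vary without NFE2L2 siRNA. Between control duplex 2 and control duplex 1, 0 of 39 genes passed the threshold by edgeR, with 0 at an unadjusted p under 0.05 (7.26% of all genes) and 0 by DESeq2, where edgeR called 0% and DESeq2 0.465% of all genes. Their log2 differences ran from −0.29 (PSMA1) to 0.21 (PSMA4), with a median of −0.06. They were negative for 29 of the 39 genes, against 8832 of all 17811 genes tested. In a fit of the 4 control libraries alone, 3.28% of all genes and 0 of the 39 passed. The mock library lay within the range of the 4 controls for 29 genes, above it for 8 and below it for 2 (PSMB9 and PSMD1), and its summed level was 5628 CPM, 102% of the control mean.

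NFE2L1, the factor known to control proteasome genes, had no difference detectable with these libraries: it was at 274, 293 and 205 CPM against 248 to 263 CPM, with a log2 fold change of 0.01 (SE 0.120, adjusted p = 0.978). Duplexes 1 and 2 stood above every control and duplex 3 below. Over all 44 tested genes of the proteasome and ubiquitin pathways outside the 40, 2 were reduced and 0 increased past the threshold, against 1.36% and 1.39% of all genes. Besides PSMG3, the reduced gene was SQSTM1, which encodes the ubiquitin-binding autophagy receptor p62 and is a known NRF2 target, at 462, 471 and 432 CPM against 929 to 1260 CPM (log2 fold change −1.28, adjusted p = 2.27e-04).

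In the controls, the levels per kb of exon differed widely among subunits that the particle holds in equal number. PSMA7 was highest at 175 ± 13.7 CPM per kb (SD, n = 4), followed by PSMB5, PSMC4 (110 ± 3.46) and PSMB6 (105 ± 5.80), and the control ranges of the last pair overlapped. The lowest outside the immunoproteasome were PSMA2 (3.57 ± 0.142), PSMC1 (5.17 ± 0.209) and PSMA6 (6.77 ± 0.480). The order depends on the length, which here takes in the exons of every transcript annotated in GENCODE v44, while the reads were counted on v19. With the longest transcript as length, PSMD1 moved from rank 28 to rank 15 and PSMC6 from 30 to 22. PSMA7 and PSMB5 kept ranks 1 and 2. Reads that fit more than 1 place were not counted. PSMC1 has 13 annotated pseudogenes, PSME2 has 6, PSMA6 has 4, PSMA2 has 3 and 11 further genes have 1 or 2. Reads counted on the pseudogenes came to 11.2% of those of PSMA6, 9.28% for PSMC1, 1.49% for PSME2 and 0% for PSMA2. They came to less than for PSME2 in the further genes. PSME2 lay in the middle of the order at 31.1 CPM per kb, and the part of pseudogenes in these levels was not tested. In GENCODE v44, exon sequence shared with another gene of the same strand made up 39.4% of PSMB10, 26.7% of PSMA1, 17.2% of PSMA2 and 14.1% of PSMA6. It was less than 10% for 3 further genes. Reads in sequence shared in the v19 annotation of the counts count for neither gene, but the v19 exons were not compared. The levels of these genes are thus uncertain.

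Reads that fit more than 1 place made up 18.2% to 19.1% of the entries in the NFE2L2 siRNA libraries and 16.9% to 17.7% in the control libraries, without overlap, and 17.0% in the mock library. The 15 genes with an annotated pseudogene had a median log2 fold change of −0.36, and all 15 were negative. The 24 without one had a median of −0.19, and 19 of them were negative. Among the 18 without a pseudogene outside the immunoproteasome and the activators, all were negative, with a median of −0.25. For 9 of them all NFE2L2 siRNA libraries were below the controls (11.4% of all genes tested). The part of uncounted reads in the fold changes was not tested.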

How the data were processed

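Total RNA of A549 cells was sequenced with a strand-specific kit after ribosomal depletion. The authors aligned the reads to hg19 with HISAT (version 0.1.6 per the submitters' processing notes) and deposited counts per GENCODE v19 gene from HTSeq (0.6.0), strand-aware and without normalization. Names, exon lengths and pseudogenes were taken from GENCODE v44 lifted to GRCh37, and promoters from RefSeq (GRCh38.p14). Unassigned reads were left out.

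Counts were compared with edgeR 4.0.16 in R 4.3.3 (TMM, quasi-likelihood test, two-sided, Benjamini-Hochberg adjustment, threshold 0.01) over genes with 10 or more reads in any 1 of the 7 siRNA libraries. The SE was derived from the log2 fold change and its F statistic. DESeq2 1.42.0, the tool of the study's methods, and limma-voom (limma 3.58.1) were alternatives, with other scalings, filters, control groups and the omission of each library. The mock library entered only 1 alternative fit, as a control. The labels do not say that transfections were separate cultures, so p-values measure the spread between these libraries. Replicate transfections of a control duplex differed by more than counting noise (chi-square per degree of freedom 12.6 and 14.2). The value was 31.1 for a pair of libraries from different control duplexes and 78.1 for NFE2L2 duplexes 1 and 2. By rule, values were given for genes past the threshold, the lowest and highest of each class, the catalytic and immunoproteasome subunits, the activators, POMP, PSMG1, NFE2L2, NFE2L1 and pathway genes past the threshold; others were named after their values were seen. The 40 genes and the further lists were chosen with earlier results of these data known, and no list was tested.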

Additional observations from a re-analysis of the deposited data

How the results depend on the processing

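The median log2 fold change of the 39 proteasome genes was negative under every alternative, from −0.33 without the duplex 1 library to −0.15 without the duplex 3 library. The number with every NFE2L2 siRNA library below the controls ran from 18 to 26. The share of all genes beside it is given only for the reported fit (11.4%). Groups with fewer libraries separate more easily, so these counts cannot be compared between fits. The number reduced past the threshold was 0 in the reported fit (1.36% of all genes), 5 with DESeq2 (3.32%) and 5 with a threshold of 0.05 (3.54%). It was 2 with a filter of 1 read (PSMA3 and PSMA5, against 1.49% of all genes). With the mock library added to the controls it was 1 (PSMA5, against 1.79%). With a library left out it was 0 to 2, where 0.72% to 2.94% of all genes were reduced. PSMB8 and PSME1 lay above the controls in the reported scaling, and 1 of them did with DESeq2 size factors. Of the pathway genes outside the 40, 2 were reduced in the reported fit (1.36% of all genes), 4 with DESeq2 (3.32%) and 4 with a threshold of 0.05 (3.54%). It was 1 with library size alone (1.3% of all genes), with control duplex 1 alone (0.544%) and with control duplex 2 alone (0.3%). It was also 1 with the control duplexes summed (0.403%) and in the fit with 3 groups (1.22%). With a library left out it was 1 to 2 (0.72% to 2.94% of all genes). The cause of these shifts was not tested.

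Values near 0 changed sign. PSMB4 ranged from −0.117 to 0.0202 over the omission of single libraries. PSMB10 was at −0.00566 against control duplex 1, PSME2 at 0.00238 against control duplex 2 and PSME4 at −0.0417 against control duplex 2 and from −0.0231 to 0.0648 without single libraries. NFE2L1 was at −0.00899 with limma-voom, −0.00195 with the filter of 1 read, −0.0138 against control duplex 1, −0.00836 with the mock library added, and from −0.110 to 0.148 without single libraries. With the longest transcript as length, the median level per kb over the genes was 52.3 CPM instead of 27.4, and the stricter motif was found in 0 of the promoters.

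No paired analysis was possible because a number on an NFE2L2 library and on a control library names unrelated duplexes. With 3 and 4 libraries, the intervals allow reductions of up to 0.78 on the log2 scale. Intervals cover the spread between libraries of 5 duplexes and not that between A549 cultures.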
